A study of Mus musculus with 7 samples.

Results

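Clone A4 is 1 of 4 PECAM1+ clones derived from the mouse melanoma line B16F10, whose cells make pigment, and its array was set against those of the other 3, clones A2, A3 and A5. The series holds 7 arrays in all: parental B16F10 and clone A1, both labelled PECAM1-, the 4 PECAM1+ clones, and mouse dermal endothelial cells (MDEC), labelled PECAM1+. PECAM1 (CD31) is a surface protein through which endothelial cells adhere to one another, and blood cells carry it too. The B16F10 cells were grown in DMEM with serum and the endothelial cells in endothelial growth medium. Total RNA from each culture was hybridised to an Affymetrix gene array (Mouse Gene ST), whose probes lie along whole transcripts. No treatment or time point is labelled, and the way the clones came to differ in PECAM1 is not given in the sources used here.

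Each clone has 1 array, so a difference has no replicate check: 1 clone against 3 gives sizes and positions, and clone, culture and array cannot be told apart. The SD given with a mean is the spread over clones A2, A3 and A5, not an error of repeated measurement. All levels are log2 values of 1 probe set per gene, so a difference of 1 is a 2-fold difference in signal. A gene is called higher or lower in clone A4 where it differed 2-fold or more from the average of the other 3 clones and lay outside their range.

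B16F10 cells descend from melanocytes, which arise from the neural crest, as Schwann cells do. The transcription factors MITF and SOX10 control the genes of melanin synthesis, and melanoma cells vary between a pigmented state and a less pigmented, more invasive one. Clonal lines of a tumour can also differ in chromosome content. The genes looked at first were Timp4, Scrg1, Cda, Bcan and Fabp7, which earlier results from the same arrays had singled out.

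Among 19938 genes, 39 were higher in clone A4 (0.196%) and 21 were lower (0.105%). At a 1.5-fold difference the counts were 165 higher (0.828%) and 162 lower (0.813%). Regardless of size, clone A4 lay above the other 3 clones for 3910 genes (19.6%) and below them for 5974 (30.0%). The same 2-fold rule, applied to each other clone against its 3 counterparts, gave 6 higher (0.0301%) and 20 lower genes (0.100%) for clone A2. It gave 44 higher (0.221%) and 19 lower (0.0953%) for clone A3, and 1 higher (0.00502%) and 3 lower (0.0150%) for clone A5. These comparisons share arrays. Without clone A2 in the reference, 47 genes were lower in clone A4 and 50 higher. By genes at least 2-fold apart between single arrays, clone A4 was nearest to clone A2 (62 genes) and clone A5 (67), and farther from clone A3 (159), the parental line (245) and clone A1 (1325).

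**Figure D1:**
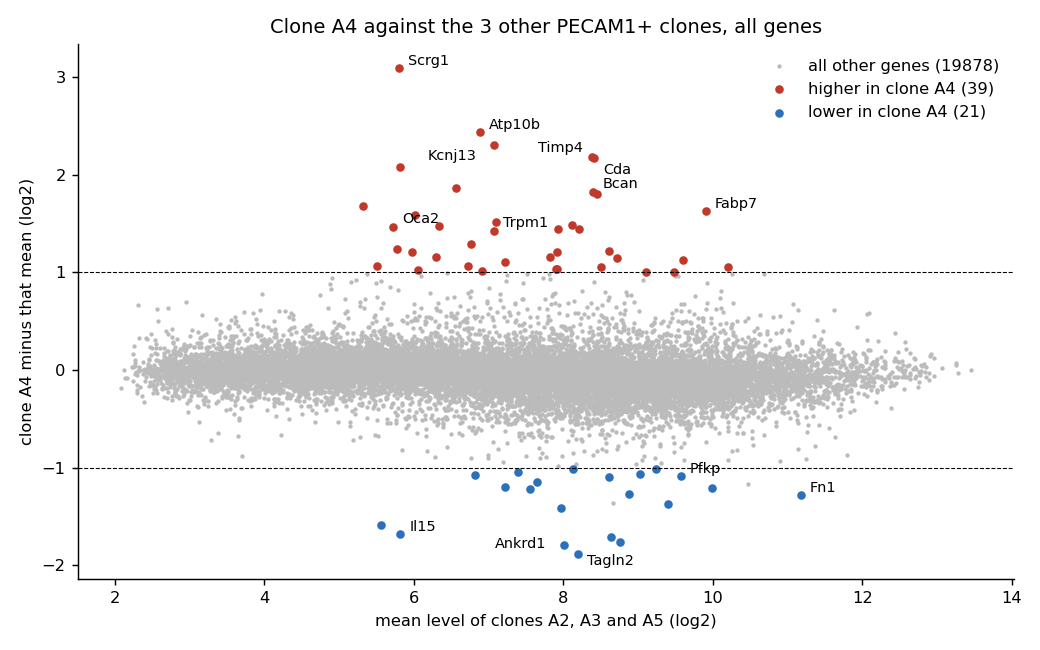
Difference of clone A4 from the mean of clones A2, A3 and A5 (vertical axis, log2) against that mean (horizontal axis, log2), 1 point per gene, with dashed lines at a 2-fold difference. The 39 higher genes (red) reach 3.09 and the 21 lower genes (blue) reach -1.89, and the cloud of all other genes dips slightly below 0 at high levels.

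The parental array and that of clone A1 were not used by the rule. Clone A4 was the highest of all 6 B16F10 arrays for 30 of the 39 higher genes, clone A1 lay above it for 9 and the parental line for 1. For the 21 lower genes, clone A4 was the lowest of the 6 for 10, clone A1 lay below it for 11 and the parental line for 2. The rule had already placed clone A4 beyond clones A2, A3 and A5, so only the parental line and clone A1 could change these ranks. No share over all genes stands beside these ranks, and nothing is read from them. Clone A1 lay below the mean of clones A2, A3 and A5 for 19 of the 21 lower genes (50.8% of all genes), and the parental line for 17 (48.7%). Clone A1 lay above that mean for 23 of the 39 higher genes (47.6% of all genes) and the parental line for 11 (49.1%). A gene called lower had to have a high mean over the 3 clones, which itself places other arrays below that mean, so these counts are a description. The values of the reference clones also chose the genes: clone A3 was the highest of the 3 for 19 of the 21 lower genes and the lowest for 21 of the 39 higher ones, and nothing is read from it.

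Pecam1 itself was level across the PECAM1+ clones. Its level was 11.07 in clone A2, 11.01 in clone A3, 11.03 in clone A4 and 11.00 in clone A5, against 5.27 in the parental line, 5.43 in clone A1 and 11.72 in MDEC. Clone A4 lay within the range of the others, at 0.01 from their mean. The labels of all 6 B16F10 arrays therefore match their Pecam1 level.

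Scrg1, a small secreted protein known from brain and cartilage, stood farthest from the other clones. Its level was 8.89 in clone A4, 6.17 in clone A2, 5.48 in clone A3 and 5.75 in clone A5, with 5.22 in the parental line, 6.20 in clone A1 and 4.78 in MDEC. Clone A4 was above every other array, 3.09 from the mean of the 3 clones (5.80 ± 0.35, SD, n = 3), an 8.53-fold difference.

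Timp4, an inhibitor of matrix metalloproteinases, was at 10.57 in clone A4, 9.65 in clone A3, 7.76 in clone A2 and 7.74 in clone A5. It was at 6.41 in the parental line and 5.53 in clone A1, so all PECAM1+ clones were above both PECAM1- arrays and clone A4 was the highest. The difference of 2.18 was measured against a mean with a wide spread (8.39 ± 1.10, SD, n = 3), and clone A4 exceeded clone A3, its nearest neighbour, by 0.92. Of 29 measured genes of TIMPs and matrix proteases, Timp4 was the only one called higher (against 0.196% of all genes). Plaur was the only one called lower (against 0.105%). Timp4 was known from earlier results before the list was drawn up. The other 3 inhibitors lay below all 3 clones: Timp1 at -0.92 from their mean, Timp2 at -0.43 and Timp3 at -0.58. Of the list, 41.4% lay below the range of the 3 clones and 13.8% above it, with a median of -0.05. The shares were 30.0% and 19.6% for all genes, and 40.4% and 17.6% for genes with a mean level of at least 6.

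Cda, cytidine deaminase of the pyrimidine salvage pathway, was at 10.58 in clone A4, 8.89 in clone A3, 8.23 in clone A5 and 8.11 in clone A2. The parental line was at 7.35, clone A1 at 7.34 and MDEC at 9.53. Clone A4 was above all of them, 2.17 from the mean of the 3 clones (8.41 ± 0.42, SD, n = 3). Of 26 nucleotide metabolism genes measured (the list named nucleoside salvage further on), Cda was the 1 called higher (against 0.196% of all genes). None was called lower (against 0.105%). Cda was known from earlier results before the list was drawn up. Of the list, 50% lay below the range of the 3 clones and 15.4% above it, with a median of -0.14, against 40.4% and 17.6% of all genes with a mean level of at least 6. Dhodh (-0.54), of pyrimidine synthesis, and Upp1 (-0.49), uridine phosphorylase, were the lowest.

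Bcan, brevican, a proteoglycan of brain matrix, was at 10.23 in clone A4, 8.68 in clone A3, 8.35 in clone A5 and 8.17 in clone A2, with 7.66 in the parental line and 7.16 in clone A1. The difference was 1.83 (mean 8.40 ± 0.26, SD, n = 3). Bcan was the only one of 27 brain matrix genes past the rule (against 0.196% of all genes called higher and 0.105% lower). It was known from earlier results before the list was drawn up. The median of that list was 0.03. Has2, a hyaluronan synthase, had the next largest difference (-0.89), but at 5.40 it lay within the range of the other clones (5.22 in clone A2 to 6.86 in clone A3).

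Fabp7, the brain fatty acid binding protein of glial precursors, was at 11.53 in clone A4, 10.10 in clone A2, 9.98 in clone A5 and 9.63 in clone A3. The parental line was at 9.63 and clone A1 at 10.37, so clone A4 was the highest of the 6, 1.63 from the mean (9.90 ± 0.24, SD, n = 3). Crabp2, a retinoic acid binding protein of the same family, was at 9.87 in clone A4 against 8.20, 8.90 and 9.06 in clones A2, A3 and A5, a difference of 1.15. The family's other measured members included Fabp5 (0.13) and Pmp2 (0.25), both within the range of the 3 clones. Over the 20 genes of this list, 2 were called higher (against 0.196% of all genes) and none lower (0.105%), and the median was 0.04. Fabp7 was known from earlier results before the list was drawn up.

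Further genes far above the other clones had varied roles. Atp10b, a phospholipid flippase, was at 9.32 in clone A4 against 7.13, 6.66 and 6.85 in clones A2, A3 and A5, a difference of 2.44. Oc90, an otoconial protein, was at 7.90 against 5.75, 5.89 and 5.80, a difference of 2.08 with little spread among the 3 (SD 0.07). Adam23, an adhesion protein of neurons, was at 8.42 against 7.05, 5.91 and 6.72, with clone A1 at 8.40. Chn2 (1.68), a GTPase activating protein, Gpr37 (1.52), a receptor of glia, and Map7d2 (1.47), a microtubule protein, were also above all 3.

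Kcnj13 and Cited1 were higher in clone A4 and higher still in clone A1. Kcnj13, an inwardly rectifying potassium channel, was at 9.37 in clone A4 and 11.61 in clone A1, against 8.13, 6.11 and 6.98 in clones A2, A3 and A5 and 5.88 in the parental line. Cited1, a transcriptional co-regulator found in melanocytes, was at 10.25 in clone A4 and 10.96 in clone A1, against 8.54, 8.32 and 8.50 in clones A2, A3 and A5. Their differences were 2.30 and 1.80.

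**Figure D2:**
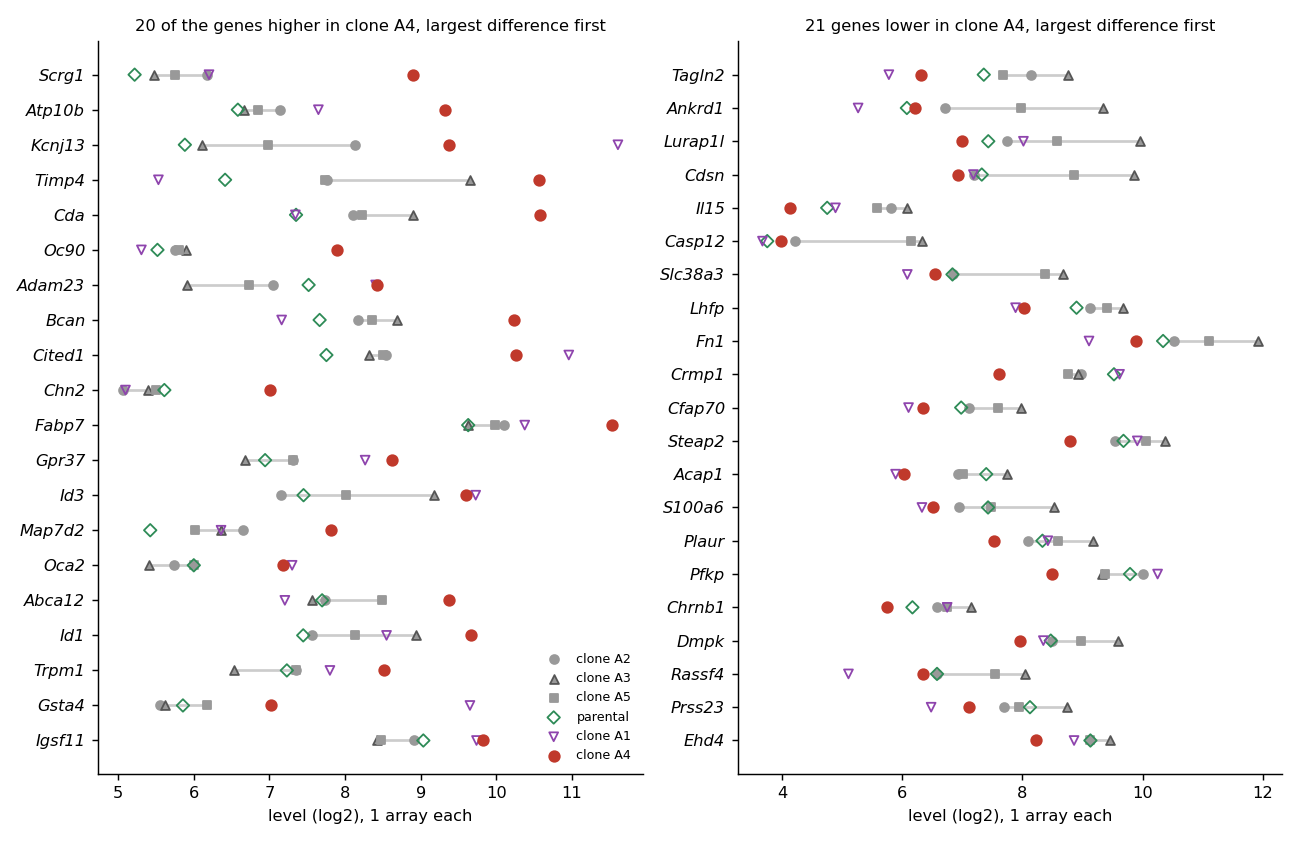
Levels (log2, 1 array each) of 20 of the higher genes, predicted genes left out, and of all 21 lower genes in the 6 B16F10 arrays. The grey line spans clones A2, A3 and A5, and the red point, clone A4, lies outside it for every gene shown, as the rule requires. Clone A1 (purple) passes clone A4 in genes such as Kcnj13, at 11.61.

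Pigment genes were the list farthest above the other clones. Of 22 measured, 18 lay above the range of clones A2, A3 and A5, 1 lay below it, and the median difference was 0.36, against 19.6%, 30.0% and a median of -0.01 for all genes. The lists described singly were picked after their values were seen, and the list medians ranged from -0.25 to 0.36 over 34 lists. By the median deviation from the mean of the 4 PECAM1+ clones, clone A4 was at 0.27, clone A2 at 0.02, clone A5 at -0.01 and clone A3 at -0.28. The 4 clones thus span a range in which clone A4 was at one end and clone A3 at the other.

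Oca2 and Trpm1 were the pigment genes past the 2-fold rule (2 of 22, against 0.196% of all genes called higher). Oca2, a melanosome membrane protein, was at 7.18 in clone A4 against 5.74, 5.41 and 6.00 in clones A2, A3 and A5, a difference of 1.47, with clone A1 at 7.30. Trpm1, a cation channel of melanocytes, was at 8.51 against 7.35, 6.53 and 7.35, a difference of 1.43, and the parental line and clone A1 were at 7.23 and 7.80. Gpr143, a receptor of the melanosome, was at 10.49 against 9.59, 9.28 and 9.72, and its difference of 0.96 fell short of the rule.

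Tyr, tyrosinase, the enzyme that starts melanin synthesis, was at 10.84 in clone A4, 10.29 in clone A2, 9.63 in clone A3 and 10.38 in clone A5, a difference of 0.74. The parental line was lower, at 8.49. The other defining melanocyte genes were near the top of the scale in every B16F10 array and differed little: Pmel by 0.38, Mlana by 0.30, Dct by 0.29 and Tyrp1 by 0.17, each above the other 3 clones. Ednrb, the endothelin receptor of the crest lineage, was the pigment gene below the range, at -0.28 and a low level of 4.75.

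Among their regulators, Mitf was at 11.95 in clone A4 against 11.87, 11.50 and 11.69 in clones A2, A3 and A5 (0.26), and the parental line was at 11.94. With all its probe sets averaged the difference of Mitf was 0.59. Sox10 was at 11.00 against 10.99, 10.77 and 10.72 (0.18). Of 24 crest regulators none passed the rule, 8 lay above the 3 clones (33.3%, against 19.6% of all genes) and 5 below (20.8%, against 30.0%), and the median was 0.02. Tbx2 (0.59) and Irf4 (0.54), transcription factors of the melanocyte lineage, had the largest differences among them.

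The promoters of Trpm1, Oca2 and Kcnj13 are shown because each gene was among the higher ones and each window holds CATGTG, the E-box form known for MITF. They were chosen after the matches were seen. The sequences are RefSeq windows of GRCm38.p6, 250 bases before to 50 after the annotated start, read along the gene's strand, with the match in capitals (CACATG is the same motif on the opposite strand). The Trpm1 window is the first of its listed starts, chr7:64153585-64153884 on the plus strand, the Oca2 window is chr7:56239509-56239808 on the plus strand and the Kcnj13 window is chr1:87394680-87394979 on the minus strand.
Trpm1: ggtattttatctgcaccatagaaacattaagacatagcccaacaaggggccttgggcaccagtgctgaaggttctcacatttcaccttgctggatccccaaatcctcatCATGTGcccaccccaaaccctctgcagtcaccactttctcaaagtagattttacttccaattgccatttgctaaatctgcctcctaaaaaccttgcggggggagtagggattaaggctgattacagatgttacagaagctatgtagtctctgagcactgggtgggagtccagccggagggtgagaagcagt
Oca2: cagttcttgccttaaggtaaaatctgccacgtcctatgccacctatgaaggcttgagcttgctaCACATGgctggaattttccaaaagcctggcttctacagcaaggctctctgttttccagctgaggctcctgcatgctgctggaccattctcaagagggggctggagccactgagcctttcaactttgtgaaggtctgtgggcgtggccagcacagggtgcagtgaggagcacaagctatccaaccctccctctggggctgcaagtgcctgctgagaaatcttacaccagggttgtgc
Kcnj13: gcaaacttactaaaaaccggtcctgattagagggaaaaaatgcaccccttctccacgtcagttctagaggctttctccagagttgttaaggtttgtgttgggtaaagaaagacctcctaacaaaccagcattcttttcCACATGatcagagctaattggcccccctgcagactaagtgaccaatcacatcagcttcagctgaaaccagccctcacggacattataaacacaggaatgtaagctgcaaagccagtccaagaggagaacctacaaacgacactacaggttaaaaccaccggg
The matches begin 141, 186 and 112 bases before the start.

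In all, 7 motifs were searched on both strands, and the share of higher genes with CATGTG was near that of all genes. It was found in 5 of the 30 higher genes with a window (16.7%), in 0 of 17 lower genes, and in 12.6% of all 15614 genes with one. TCATGTG, which contains it, was in 3 of 30 higher genes, 0 of 17 lower genes and 3.39% of all. AGGTCA, the nuclear receptor motif, was in 10 of 30, 3 of 17 and 16.3% of all, and CACGTG in 1 of 30, 1 of 17 and 9.50%. ACAAAG was in 6 of 30, 2 of 17 and 19.0%, CATTCC in 5 of 30, 4 of 17 and 15.1%, and TGACTCA in 0 of 30, 2 of 17 and 5.41%. A match of letters is a description and not a binding site.

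Of 29 glial and crest genes measured, 3 were called higher (Scrg1, Fabp7 and Aldoc, against 0.196% of all genes) and none lower. Scrg1 and Fabp7 were known from earlier results before the list was drawn up. Of the list, 34.5% lay above the 3 clones and 17.2% below, against 19.6% and 30.0% of all genes, and the median was 0.01. Aldoc, the brain form of aldolase, was at 8.96 in clone A4 against 8.27, 6.86 and 8.64 in clones A2, A3 and A5, and both PECAM1- arrays were above it, at 9.42 and 11.18. S100b, a calcium binding protein of glia and melanocytes, was just short of the rule (0.97). In the other direction, Pmp22, a myelin protein, was at 10.94 against 11.44, 12.16 and 11.81 (-0.87), and Ngfr, the crest neurotrophin receptor, at -0.51.

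Id1 and Id3, inhibitors of basic helix-loop-helix factors and targets of BMP signalling, were both called higher. Id1 was at 9.66 in clone A4, 7.57 in clone A2, 8.94 in clone A3 and 8.13 in clone A5, a difference of 1.45. Id3 was at 9.60 against 7.15, 9.18 and 8.02, a difference of 1.49, and clone A1 was at 9.73. In both genes clone A3 was the nearest to clone A4, and the 3 reference clones were widely spread (SD 0.69 and 1.02). Id2 (0.59), Smad9 (0.69) and Smad6 (0.43) lay above the 3 clones without passing the rule, and Id4 was at -0.12. Over 32 genes of TGF-beta and BMP signalling, 2 were called higher (against 0.196% of all genes) and none lower (0.105%). Of the list, 31.2% lay above and 12.5% below, against 19.6% and 30.0% of all genes, and the median was 0.02. Bmp1, a procollagen protease despite its name, was the lowest at -0.65.

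**Figure D3:**
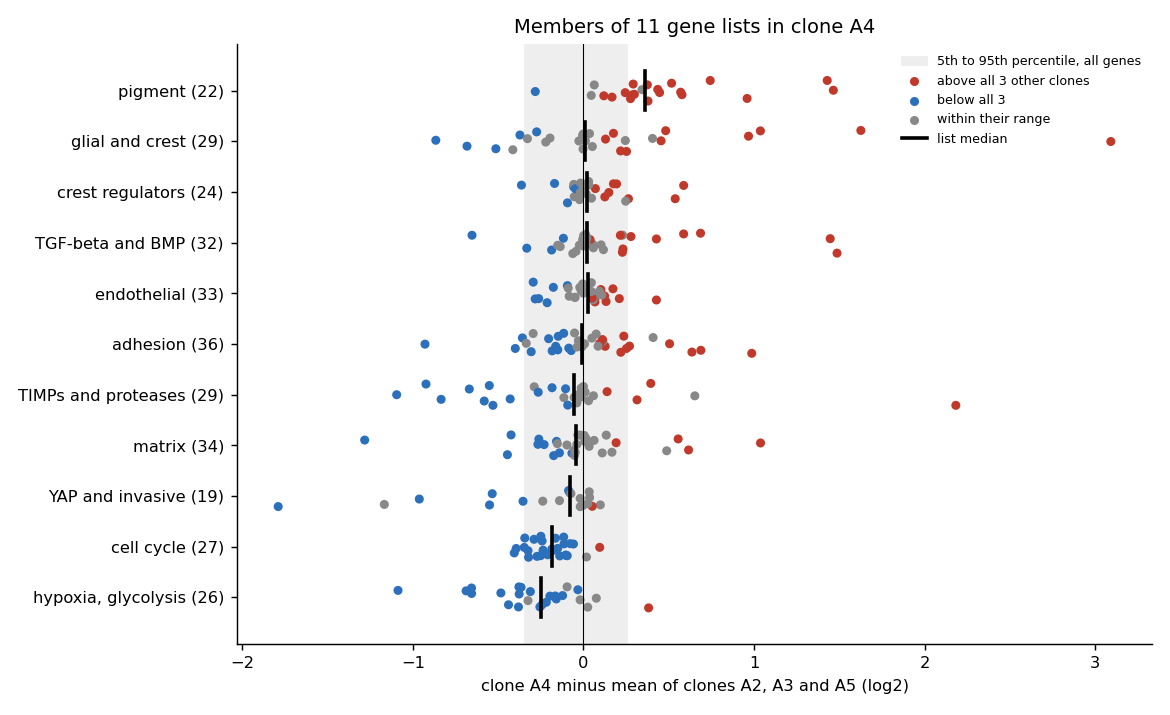
Difference of clone A4 from the mean of clones A2, A3 and A5 (log2) for each member of 11 gene lists, with the number measured in brackets; the black bar is the list median and the grey band the 5th to 95th percentile of all genes. Pigment genes centre on 0.36 and hypoxia and glycolysis genes on -0.25, while the glial and crest list centres on 0.01 with Scrg1 alone beyond 3.

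The genes lower in clone A4 included Tagln2, Ankrd1 and Fn1. Tagln2, an actin binding protein, was at 6.31 in clone A4 against 8.15, 8.76 and 7.68 in clones A2, A3 and A5, with clone A1 at 5.78 and the parental line at 7.36. The difference was -1.89, the lowest of all genes called. Ankrd1, a target of YAP, was at 6.22 against 6.71, 9.33 and 7.98 (-1.79), close to the parental level of 6.08. Fn1, fibronectin, was at 9.90 against 10.52, 11.91 and 11.11 (-1.28), and both PECAM1- arrays were within 1 of clone A4, at 10.34 and 9.11.

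In all of these genes clone A3 was the farthest from clone A4. Thbs1, thrombospondin, shows the limit of the rule: it was at 9.30 in clone A4 against 8.64, 11.76 and 10.99, a difference of -1.17 that stayed within the range of the 3 clones. Of 19 YAP and invasive genes 1 was called lower (against 0.105% of all genes) and none higher. Of the list, 36.8% lay below the 3 clones, against 30.0% of all genes and 40.4% of genes with a mean level of at least 6. Their median was -0.08, and it ranged from -0.18 without clone A2 to -0.0067 without clone A3. Of 34 matrix genes, Fn1 was called lower (against 0.105% of all genes). Tnfrsf11b, the decoy receptor osteoprotegerin, was called higher (1.04, against 0.196% of all genes). Of the matrix genes 32.4% lay below and 11.8% above, against 30.0% and 19.6% of all genes, with a median of -0.04. For genes with a mean level of at least 6 the shares were 40.4% and 17.6%.

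Among the remaining lower genes, Il15, an interleukin, was at 4.14 in clone A4 against 5.80, 6.08 and 5.57, below all other arrays. Crmp1, a protein of growth cones, was at 7.61 against 8.97, 8.93 and 8.76, with 9.52 in the parental line and 9.61 in clone A1, so clone A4 stood alone. Cdsn (-1.71), a protein of keratinocyte junctions, Lurap1l (-1.76), and Slc38a3 (-1.42), an amino acid transporter, were high mainly in clones A3 and A5. Casp12 (-1.59) was at 3.98 in clone A4 and 4.21 in clone A2, against 6.33 and 6.15 in clones A3 and A5. Plaur, the urokinase receptor, was at 7.52 against 8.08, 9.17 and 8.60 (-1.09), and S100a6 at 6.51 against 6.95, 8.53 and 7.48 (-1.14).

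Genes of hypoxia and glycolysis were the list with the lowest median. Of 26 measured, 20 lay below the range of the 3 clones (76.9%) and 1, Ndrg1 (0.38), above it (3.85%), with a median of -0.25. For all genes the shares were 30.0% below and 19.6% above, and for genes with a mean level of at least 6 they were 40.4% and 17.6%. Pfkp, a phosphofructokinase, was the 1 member called lower (against 0.105% of all genes), and none was called higher (0.196%). Pfkp was at 8.48 in clone A4 against 10.01, 9.33 and 9.38 in clones A2, A3 and A5. It was at 9.79 in the parental line and 10.25 in clone A1. Pdk1 (-0.69), Egln1 (-0.66), Egln3 (-0.66) and Bnip3 (-0.48) were next, whereas Ldha (-0.02) was within the range. Aldoc, the aldolase given with the glial genes, was called higher (1.04) and was not on this list.

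Cell cycle genes were lower by small amounts. Of 27 measured, 25 lay below the other 3 clones (92.6%) and Pcna (0.10) above, none passed the rule, and the median was -0.19. The share below was 30.0% for all genes and 40.4% for genes with a mean level of at least 6. Mcm6, a subunit of the replicative helicase, was at 9.73 against 10.22, 10.13 and 10.05 (-0.41), and Mki67, the proliferation marker, at 10.34 against 10.41, 10.44 and 10.36 (-0.06). Clone A1, for comparison, had a median of -3.16 in these genes relative to the mean of the 4 PECAM1+ clones, and clone A4 had -0.14.

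Both lists, and that of nucleotide metabolism, hold mostly well expressed genes, and clone A4 read slightly low in such genes overall. With genes cut by level into 5 equal groups, the median difference was -0.07 and -0.09 in the groups of highest level, and 0.00, 0.01 and 0.00 in the others. Of 11756 genes with a mean of at least 6 over the B16F10 arrays, 40.4% lay below the 3 clones and 17.6% above. Its 75th percentile over probe sets was 8.28, against 8.32 to 8.37 in the other 5 B16F10 arrays. The part of this shift in the medians of these lists was not tested, apart from a quantile scaling of the arrays, under which the cell cycle median was -0.14 and that of nucleotide metabolism -0.0918. The median of hypoxia and glycolysis under that scaling is not given here.

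**Figure D4:**
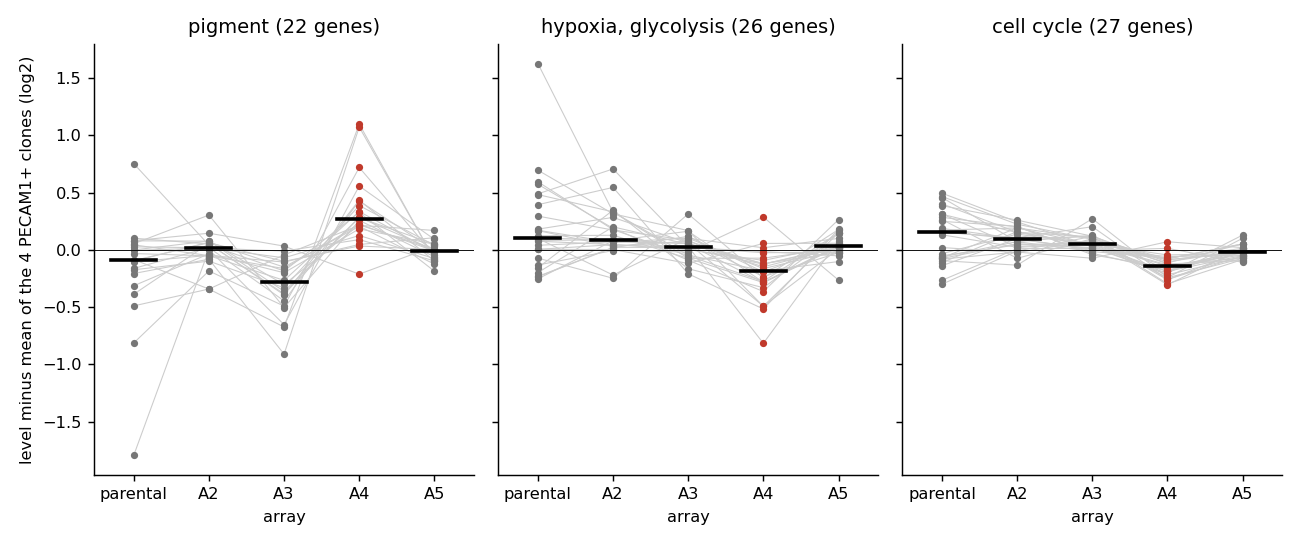
Level of each gene minus its mean over the 4 PECAM1+ clones (log2) in the parental line and the 4 clones, 1 grey line per gene, with black bars at the medians. Pigment genes have medians of 0.27 in clone A4 and -0.28 in clone A3, and the cell cycle median in clone A4 is -0.14.

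Gene order on the chromosomes gave a further difference. Over 20 chromosomes, the median difference was lowest, at -0.13, on the chromosome that carries Cdh2 (472 genes), and highest, at 0.04, on the chromosome that carries Sox10 (752 genes). The other 18 had medians from -0.03 to 0.00. Both chromosomes were singled out after their values were seen. A shift of the size of 0.04 was not particular to clone A4: clone A2 was at -0.07 against its 3 counterparts on a chromosome of 940 genes. On Cdh2's chromosome 70.3% of the genes were below the mean of the 3 clones and 52.8% below their range. The share below the mean was 31.9% on the chromosome of Sox10 and 46.5% to 61.9% on the other 18.

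Limited to genes with a mean of at least 6, the medians were -0.28 (284 genes) and 0.07 (485 genes), with the other 18 from -0.08 to -0.00. At that level clone A2 was at -0.10 against the other PECAM1+ clones on a chromosome of 571 such genes. In 12 consecutive blocks of 39 to 40 genes along Cdh2's chromosome the median was negative throughout, from -0.26 to -0.04. None of its genes passed the 2-fold rule. Pdgfrb (-0.96), a growth factor receptor, Cdh2 (-0.93), N-cadherin, Tubb6 (-0.81), a tubulin, and Tcf4 (-0.79), a transcription factor, were among the lowest, and Tcf4 was at 8.79 in clone A4 against 9.53, 9.65 and 9.56.

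The chromosome of Sox10 held 3.77% of all genes and 6 of the 39 higher ones (0.798% of its genes, against 0.196% of all): Fyb, Oc90, Rapgef3, Rictor, St3gal1 and Tnfrsf11b. Neighbouring calls, meaning genes called in the same direction within 5 measured genes of each other, came to 4 higher genes (the pairs Bcan with Crabp2, and Fyb with Rictor) and 0 lower ones. DNA copy number was not measured on these arrays.

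**Figure D5:**
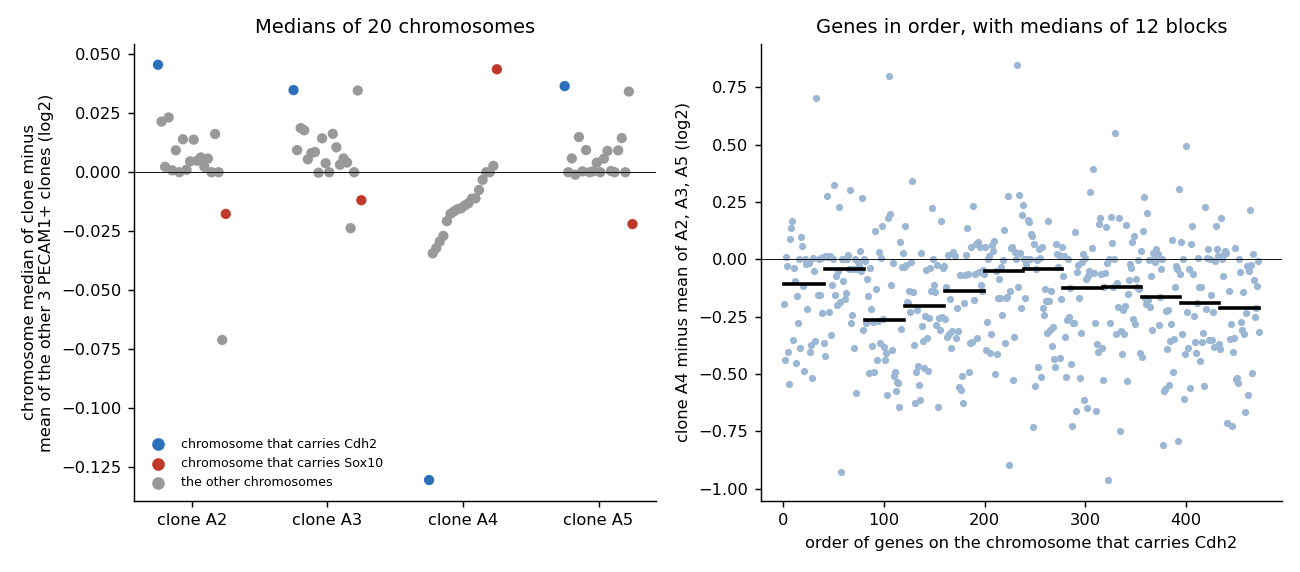
Left, median difference of each of 20 chromosomes for each PECAM1+ clone against the mean of the other 3 (log2), in the same order of chromosomes within each clone. Right, clone A4 minus the mean of clones A2, A3 and A5 (log2) for the 472 genes of the chromosome that carries Cdh2, in gene order, with black lines at the medians of 12 blocks, which run from -0.26 to -0.04.

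The lists of leukocyte, endothelial, lymphatic, keratinocyte, and fibroblast and mural markers held no called gene. This covers the members of those lists only: Cdsn (-1.71), a protein of keratinocyte junctions, was called lower and was not on them. Of 9 lymphatic genes 2 lay above the 3 clones (22.2%) and 0 below, with a median of 0.03. Of 28 leukocyte genes 10 lay above the 3 clones (35.7%, against 19.6% of all genes) and 3 below (10.7%, against 30.0%), and the largest difference was 0.50 (Lyz1). Of 33 endothelial genes 8 lay above (24.2%) and 6 below (18.2%), with differences from -0.29 to 0.43, and of 19 keratinocyte genes 4 lay above (21.1%) and 1 below (5.26%). Of 20 fibroblast and mural genes 3 lay above (15%) and 2 below (10%), and Pdgfrb had the largest difference. The mean level of the leukocyte list was 5.13 in clone A4 and 5.01 to 5.14 in the other 3, and that of the fibroblast and mural list 5.99 and 5.97 to 6.20. Among all genes the share below was larger at higher levels, 40.4% at a mean of at least 6. The 30.0% is therefore not matched in level to these lists. Limited to genes at 6 or more, the leukocyte median was -0.10, against 0.02 for the whole list. The part of such cells in the results was not tested.

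Values near the threshold were close together. Just inside it were Rictor, St6gal1 and Igsf21 (each 1.01) and, below, Ehd4 and Prss23 (each -1.01). Just outside were Osmr, Eogt and Gjb2 (each 0.99), Dglucy (-0.98) and Pdgfrb (-0.96). Of the 62 genes at least 2-fold from the mean, 2 lay within the range of the 3 clones and were not called.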

How the data were processed

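The log2 expression values of 35557 probe sets on 7 arrays were used as deposited. Partek is named in the submitters' processing notes, with no version, and no source used here gives the background correction or normalization. Probe sets with 1 gene symbol (21789) were kept, and 1621 with several symbols and 12147 with none were left out of the gene counts. For genes with several probe sets (999), the one with the highest mean over all arrays was used, without a filter on low values, giving 19938 genes.

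Clone A4 was compared with the mean and range of clones A2, A3 and A5. No p-value was computed, since each clone has 1 array, so precision is limited by how few arrays there are. The members, the 34 gene lists (891 entries measured, 47 not) and the tests were chosen with earlier results of these data known. Gene order, synonyms and promoters came from RefSeq tables of GRCm38.p6; the build of the arrays is not given in the sources used here, so coordinates are given for promoters only. The chromosome and promoter searches were repeated in several forms, including running windows along each chromosome and 7 motifs, and the ones shown were picked after their results were seen.

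Genes named were Pecam1, the 5 marker genes, the 15 largest differences in each direction, and up to 4 called or 2 uncalled members of each list; others named in the text were chosen after their values were seen. The script was tested on simulated data. Analyses used Python 3.11.15, numpy 2.4.6 and pandas 2.3.3. Alternatives were leaving out each reference clone, the median of the clones, median centring, quantile normalization, the mean of probe sets, a level of at least 6, 1.5-fold and 3-fold thresholds, a range over 5 arrays, and a 2-fold distance from the nearest clone.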

Additional observations from a re-analysis of the deposited data

Results flagged for a closer look

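Probe sets outside the gene counts held many large differences. Of 13768 probe sets with several gene symbols or none, 203 were at least 2-fold from the mean of clones A2, A3 and A5 and outside their range, 126 higher and 77 lower in clone A4. Nearly all were probe sets with no symbol: 198 of 12147 (1.63%), against 5 of 1621 with several symbols (0.308%). Among probe sets with 1 symbol the share was 0.280%. Of these 203, 172 had a mean under 6 over the B16F10 arrays (2.12% of 8108 such probe sets), against 4 of 8182 genes with a symbol at that level. At 6 or more it was 31 of 5660 probe sets (0.548%) against 56 of 11756 genes. There is no control array for this comparison, and what these probe sets measure was not tested.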

How the results depend on the processing

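None of the 60 called genes changed the sign of its difference under any alternative tried. The thresholds moved the counts most: 165 higher and 162 lower genes at 1.5-fold (23 and 28 with a neighbour), 12 and 6 at 3-fold, 16 and 4 at 2-fold beyond the nearest clone (0 higher with a neighbour in either), and 10 lower outside all 5 other B16F10 arrays. Leaving out 1 reference clone gave 39 to 50 higher genes, 4 to 7 of them with a neighbour, and 15 to 47 lower genes. Without clone A3, 32 of the 39 higher and 12 of the 21 lower genes remained. Centring the arrays gave 36 and 22, and quantile normalization 44 and 20. Pigment medians stayed between 0.25 and 0.46, cell cycle between -0.23 and -0.16, and hypoxia and glycolysis between -0.27 and -0.22 without 1 clone.

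Small medians of lists moved by more than the spread of the 3 reference clones, and the cause was not tested. Ranges for the chromosomes of Cdh2 and Sox10 are listed with them, without a spread to set them against. Without 1 clone the ranges were -0.16 to -0.0806 for nucleoside salvage, 0.00 to 0.0453 for crest regulators, -0.0634 to -0.0275 for p53 targets, 0.00634 to 0.0164 for endothelial genes, 0.0305 to 0.0638 for Notch genes and 0.00627 to 0.0119 for NRF2 and glutathione genes. They were 0.00 to 0.0326 for keratinocyte genes, -0.14 to -0.12 for the chromosome of Cdh2, 0.0389 to 0.0459 for the chromosome of Sox10, 0.00 to 0.0637 for glial and crest genes, -0.0882 to -0.0478 for tumour-initiating markers, 0.00031 to 0.0411 for Wnt genes and 0.0200 to 0.0451 for channels and transporters. Medians of other lists described singly ranged from -0.18 to -0.0067 for YAP and invasive genes, -0.0266 to 0.0513 for brain matrix, -0.0919 to -0.0293 for TIMPs and proteases, 0.00345 to 0.0835 for fatty acid binding, 0.00966 to 0.0454 for TGF-beta and BMP genes and -0.0497 to -0.0245 for matrix genes.

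With the median of the 3 clones the medians that moved were 0.00 for crest regulators, -0.0305 for p53 targets, 0.0102 for endothelial genes, -0.00466 for matrix genes, 0.0263 for Notch genes, 0.00620 for channels and transporters, 0.00 for NRF2 and glutathione genes, 0.00 for tumour-initiating markers, 0.00 for keratinocyte genes, -0.11 for the chromosome of Cdh2 and 0.0376 for the chromosome of Sox10, and 2 higher genes had a neighbour. With centred arrays they were 0.00316 for crest regulators, 0.00429 for endothelial genes, 0.0385 for Notch genes, 0.00917 for channels and transporters, -0.0447 for NRF2 and glutathione genes, -0.00179 for keratinocyte genes, -0.15 for the chromosome of Cdh2 and 0.0235 for the chromosome of Sox10, and again 2 higher genes had a neighbour. With quantile normalization they were 0.0905 for fatty acid binding, -0.0918 for nucleoside salvage, 0.00142 for crest regulators, -0.0248 for p53 targets, 0.0106 for endothelial genes, 0.0380 for Notch genes, 0.0138 for NRF2 and glutathione genes, -0.0393 for tumour-initiating markers, -0.00962 for keratinocyte genes, -0.12 for the chromosome of Cdh2 and 0.0514 for the chromosome of Sox10. With the mean of all probe sets they were -0.0269 for tumour-initiating markers, 0.00 for keratinocyte genes and 0.0409 for the chromosome of Sox10.

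Limited to genes at 6 or more, they were 0.11 for brain matrix, 0.13 for fatty acid binding, -0.20 for nucleoside salvage, 0.0505 for crest regulators, -0.30 for YAP and invasive genes, -0.0128 for endothelial genes, -0.0712 for guidance genes, -0.0836 for MHC genes, -0.10 for leukocyte genes, 0.0429 for keratinocyte genes, 0.17 for lymphatic genes, -0.28 for the chromosome of Cdh2 and 0.0741 for the chromosome of Sox10, and 2 lower genes had a neighbour. St3gal1 and Steap2 each have a dimmer probe set with a difference of 0.13 and -0.13, and averaged they were at 0.59 and -0.67. No paired analysis was possible because each clone has 1 array and the result comes from no test.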
